A study of Homo sapiens with 6 samples.

Results

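The comparison described here is that of OCI-AML2 cells carrying the hairpin TAZ shRNA1 with OCI-AML2 cells carrying a control hairpin, by RNA sequencing. It covers 4 of the 6 libraries of the series, 2 per group, lettered A and B. Of the 13002 genes in the deposited table, 10613 were compared, namely those averaging 1 RPKM or more across the 4 libraries. RPKM is the number of reads scaled to gene model length in kilobases and to library size, and genes were compared on log2(RPKM + 0.5). OCI-AML2 is an established human acute myeloid leukaemia line, which the labels describe as an engineered leukaemic stem cell line. Both groups received their hairpin by lentivirus and were kept for 3 days in puromycin (2.0 µg/mL) to select infected cells. The control hairpin is called a scramble in the labels and carries the name GFP in the column headers. The remaining 2 libraries carry a second hairpin, TAZ shRNA2, and are used below only where the hairpins are set against each other. Whether A and B came from separate cultures is not stated in the labels, and p-values therefore reflect library-to-library spread alone, possibly technical. With bulk RNA, fewer cells of a kind and less RNA per cell cannot be told apart.

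TAZ (Entrez gene 6901) encodes tafazzin, a transacylase of mitochondria that remodels the acyl chains of cardiolipin, the signature phospholipid of the inner mitochondrial membrane. Loss of tafazzin leaves immature cardiolipin and monolysocardiolipin in that membrane, and inherited loss causes Barth syndrome, in which heart muscle disease and low neutrophil counts occur together. The series asks how gene expression in leukaemia cells changes when TAZ is knocked down. In the control libraries TAZ was measured at 11.3 and 11.9 RPKM, and in the shRNA1 libraries at 4.02 and 4.10 RPKM, from 387 and 463 against 159 and 166 reads. Thus the knockdown left about 35.0% of the control level, with a log2 fold change of -1.41 ± 0.13 (SE, n = 2 per group; limma, Benjamini-Hochberg adjusted p = 0.00205). The 4 libraries held from 18820433 to 20980630 reads in the listed genes, as recovered from the RPKM steps and the authors' average level of each gene.

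Against the control hairpin, 1060 genes rose and 911 fell at an adjusted p under 0.05 (limma on all 10613 genes). That is 9.99% higher and 8.58% lower, the background against which each gene group below is read. The median log2 fold change over all genes tested was -0.000475. Among the genes that rose, 225 did so at least 2-fold, and among those that fell, 154. In no called gene did the libraries of both groups overlap, but neither did they in 66.0% of all genes tested. The filter on mean level admitted 151 genes through the shRNA1 libraries alone and 146 through the controls alone, and 64 and 47 of these are among the genes that rose and fell. Calls thinned to 277 higher and 223 lower without shRNA1 B, and to 416 higher and 395 lower without shRNA1 A, since the controls alone then carry the estimate of spread. Without control A they came to 1698 higher and 1588 lower, and without control B to 2217 higher and 2230 lower. Genes that rose had a median gene model length 1.34 times that of all genes tested, and genes that fell 0.638 times. With the trend on length removed from each library, 858 of the 1060 and 683 of the 911 remained called in the same direction. The part of length in the results was not tested further.

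**Figure D1:**
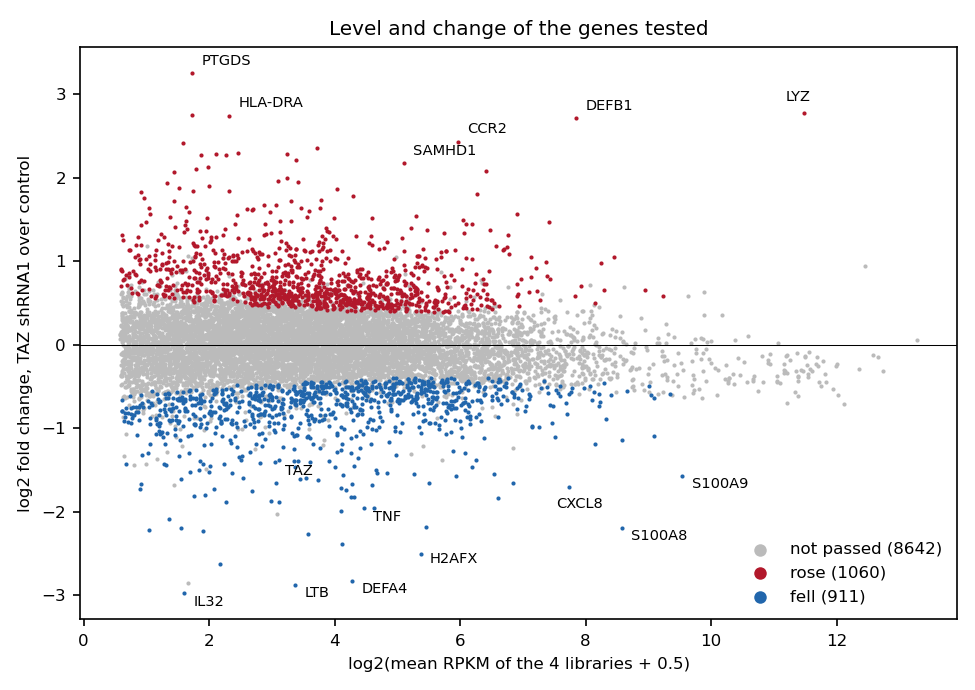
Each point is 1 of the 10613 genes tested, with log2(mean RPKM of the 4 libraries + 0.5) on the x axis and the log2 fold change of TAZ shRNA1 over control on the y axis. Red points rose (1060), blue points fell (911) and grey points did not pass. LYZ and DEFB1 stand out among abundant genes that rose, and S100A8, S100A9 and CXCL8 among abundant genes that fell.

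The 15 largest increases were those of PTGDS, LYZ, TMEM255A, HLA-DRA, DEFB1, CCR2, SIGLEC6, C5orf20, TFEC, FGL2, GABRR1, B3GNT7, CD84, GPR124 and SAMHD1, with log2 fold changes from 2.18 to 3.26. PTGDS, which makes prostaglandin D2, passed the level filter only through shRNA1. It stood at 0.207 and 0.0607 RPKM in the controls and 5.32 and 5.72 RPKM with shRNA1. SAMHD1, a hydrolase that degrades deoxynucleoside triphosphates in myeloid cells, stood at 10.8 and 13.1 RPKM in the controls and 54.3 and 56.7 RPKM with shRNA1 (log2 fold change 2.18 ± 0.13, limma adjusted p = 0.00102). FGL2, a fibrinogen-like protein with prothrombinase activity, went from 3.48 and 2.09 RPKM to 15.96 and 14.5 RPKM. In each of these 3 genes both shRNA1 libraries lay close together and far above both controls. The 15 largest decreases were those of IL32, LTB, DEFA4, CHAC1, H2AFX, CD300A, CCL3, PTPRCAP, ACY3, CCL20, S100A8, RETN, ANXA3, RGS16 and TNF, from -2.98 to -1.96. RETN, which encodes the secreted protein resistin, stood at 81.5 and 60.8 RPKM in the controls and 17.1 and 13.3 RPKM with shRNA1. PTPRCAP, a partner of the CD45 phosphatase, stood at 6.47 and 4.84 RPKM against 1.069 and 0.575 RPKM. The aminoacylase ACY3 stood at 3.83 and 1.97 RPKM against 0.224 and 0.182 RPKM. Both genes passed the level filter only through the controls. The controls themselves were far apart for 4 of the 15 largest decreases: CHAC1 was 2.15 and 12.96 RPKM (control A, then B), CD300A 47.8 and 11.3 RPKM, CCL3 31.2 and 8.43 RPKM and CCL20 6.90 and 1.93 RPKM. Without control B, the larger for CHAC1, its log2 fold change was -1.46. Without control A, the larger for the others, it was -1.37 for CD300A, -1.35 for CCL3 and -1.40 for CCL20. With 1 control left, the spread comes from the shRNA1 libraries alone, so a call there cannot weigh the gap between the controls.

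In absolute level the 10 largest gains in RPKM were those of LYZ, DEFB1, CA2, MS4A3, ATP5B, LCP1, PRG2, CTSG, ABCB10 and CLEC11A. CA2, a carbonic anhydrase, was at 249 and 209 RPKM in the controls and 474 and 474 RPKM with shRNA1. MS4A3, a membrane protein of granulocyte and monocyte progenitors, was at 221 and 189 RPKM against 389 and 415 RPKM, and ABCB10, a transporter of the inner mitochondrial membrane, at 54.8 and 64.6 RPKM against 158 and 200.5 RPKM. All 3 were higher in both shRNA1 libraries than in either control. Among the 10 largest losses were those of S100A9, S100A8, PPP1R27, ATF4, RPL13A, CXCL8, GSTP1, EIF1 and CORO1A. GSTP1, a glutathione transferase, fell from 445 and 342 RPKM to 191 and 152 RPKM. Of the 46 genes named in this and the preceding paragraph, 35 kept their call with each library left out in turn, 6 lost it without shRNA1 A (adjusted p from 0.161 to 0.328) and 11 without shRNA1 B (0.0509 to 0.404).

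**Figure D2:**
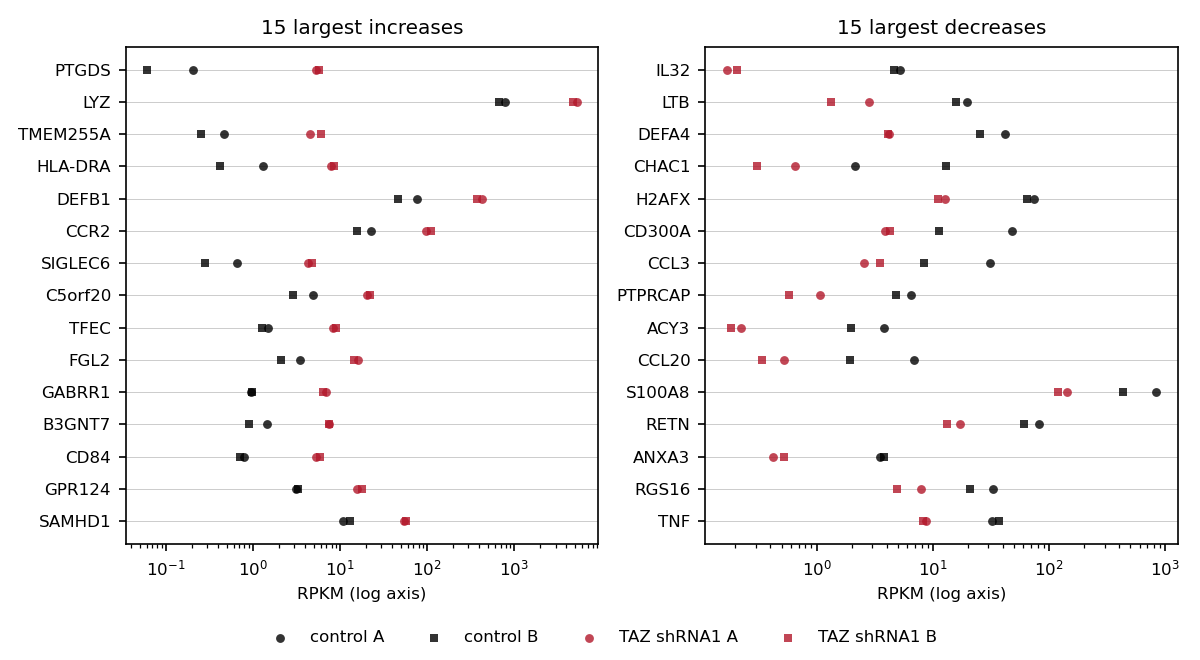
RPKM on a log axis for the 15 largest increases (left) and the 15 largest decreases (right), with 1 point per library, controls in black and TAZ shRNA1 in red. The shRNA1 libraries lie to the right of both controls in the left panel and to the left of both in the right panel, while CHAC1, CD300A, CCL3 and CCL20 show a wide gap between control A and control B.

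Lists of innate receptors of myeloid cells, 1 of them with intracellular adaptors, rose at several times the background share of 9.99%. Such receptors let monocytes, macrophages and granulocytes sense glycans, antibodies, debris and microbial products. Of 63 listed paired, lectin and Siglec receptors, 35 were tested, of which 16 rose, 2 fell and 17 did not pass (median log2 fold change 0.45). Of 15 Fc, complement and scavenger receptors tested of 33 listed, 8 rose (median 0.63), 0 fell by limma, 0 by limma-voom on the recovered reads and 0 had a lower value at an unadjusted p under 0.05. Of 27 Toll-like receptors and their adaptors tested of 36 listed, 11 rose (median 0.40), and the same 3 counts on the lower side were 0, 0 and 0. Each of these lists had 2 members that passed the level filter only through the shRNA1 libraries, and each of those rose, while the first also had 1 that passed only through the controls and fell. The medians stayed above 0 with each library left out, between 0.36 and 0.74 for the first list, 0.52 and 0.79 for the second and 0.41 and 0.47 for the third. They also stayed there with the length trend removed (0.62, 0.53 and 0.31).

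TREM2, a receptor for lipids and lipoproteins on macrophages, was at 4.397 and 3.83 RPKM in the controls and 14.8 and 14.6 RPKM with shRNA1 (log2 fold change 1.72 ± 0.13, limma adjusted p = 0.00157). CD200R1, an inhibitory receptor for CD200, went from 0.935 and 0.651 RPKM to 4.23 and 6.01 RPKM, and CLEC12A, an inhibitory lectin also found on leukaemic stem cells, from 34.6 and 30.2 RPKM to 67.1 and 74.3 RPKM. Neither shRNA1 library reached down to the controls in any of them. Among sialic acid-binding lectins SIGLEC6, SIGLEC10, SIGLEC14 and CD33 rose, with log2 fold changes from 0.82 for CD33 to 2.41 for SIGLEC6. SIRPB1 and SIRPB2, activating members of the signal-regulatory protein family, rose by 1.02 and 1.32 on the log2 scale. The 2 members that fell were the inhibitory receptor CD300A and the galactose-binding lectin CLEC10A (-0.91). CD209, a dendritic cell lectin that binds mannose, was at 0.770 and 0.747 RPKM in the controls and 4.05 and 3.28 RPKM with shRNA1. CD68, a macrophage scavenger receptor found mostly in lysosomes, and CD93, a membrane glycoprotein with a C-type lectin domain, went from 47.8 and 28.2 to 103 and 84.7 RPKM and from 23.1 and 29.1 to 53.9 and 55.1 RPKM. Control A lay well above control B for CD68, and both shRNA1 libraries lay above control A.

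TLR2, the sensor of bacterial lipoproteins, was at 14.3 and 17.2 RPKM in the controls and 35.1 and 35.7 RPKM with shRNA1. TLR8, an endosomal sensor of RNA, went from 0.530 and 0.269 RPKM to 2.40 and 2.61 RPKM, and TLR4, the sensor of lipopolysaccharide, from 0.948 and 0.956 RPKM to 1.79 and 2.66 RPKM. All 3 were higher in both shRNA1 libraries, TLR4 by the least. CD180 and LY86, which pair as a relative of the TLR4 complex, rose by 0.95 and 1.38 on the log2 scale. The chaperone UNC93B1, which carries nucleic acid-sensing receptors to endosomes, rose by 0.65, the adaptor MYD88 by 0.60 and the transcription factor IRF5 by 1.27. Of the 22 receptor genes and adaptors named as changed in this and the preceding paragraphs, 18 kept the call with each library left out, 2 lost it without shRNA1 A (adjusted p from 0.0835 to 0.219) and 4 without shRNA1 B (0.0574 to 0.216).

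**Figure D3:**
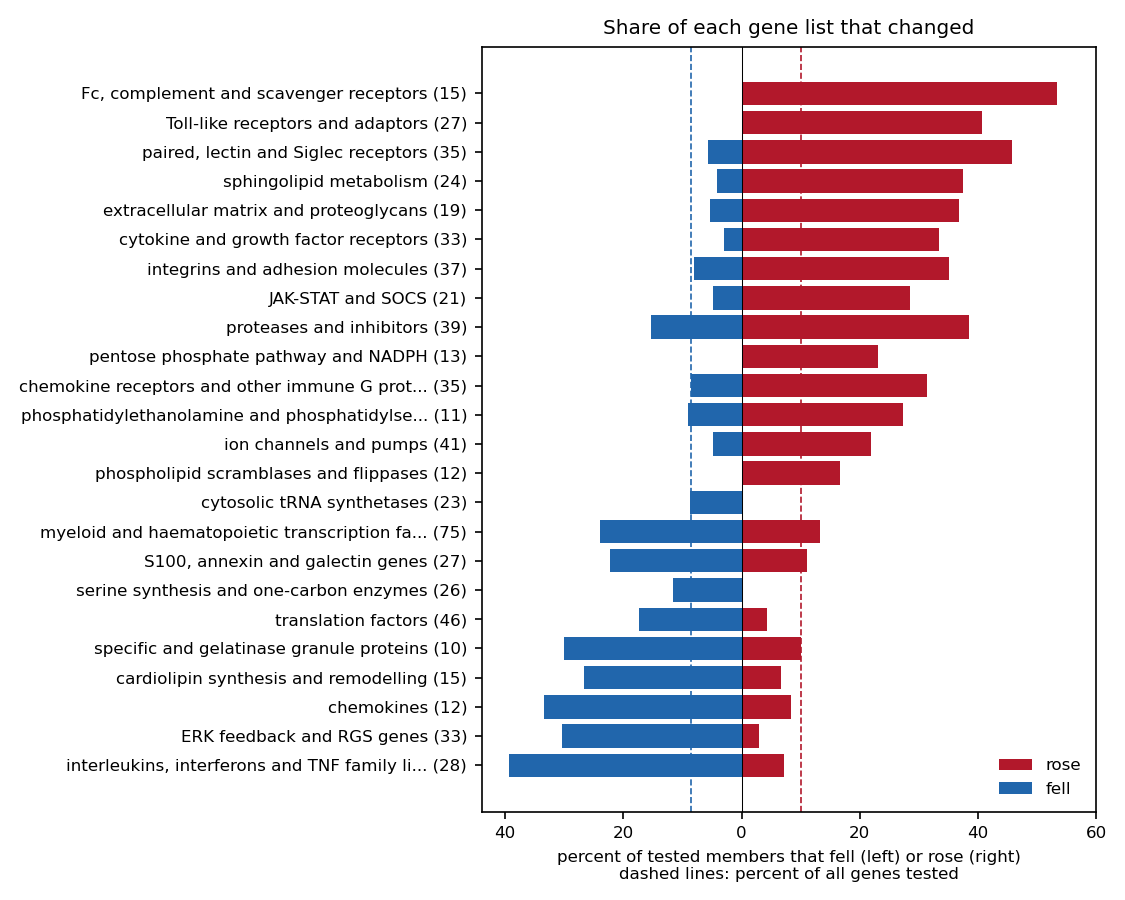
Horizontal bars give the percent of the tested members of a gene list that rose (red, right) or fell (blue, left), with the number tested in parentheses. The 24 lists with at least 10 tested members and the largest differences between the shares are shown, 14 at the top and 10 at the bottom, and the dashed lines mark the 9.99% and 8.58% of all genes. Receptor lists lie at the top, and cytokine, chemokine and ERK feedback lists at the bottom.

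Most of the called receptors for chemokines, lipid mediators and growth factors rose as well. Of 88 chemokine and other immune G protein-coupled receptors listed, 35 were tested, 11 rose and 3 fell (median log2 fold change 0.46, 0.28 to 0.50 with a library left out). CCR2, the receptor for the monocyte chemoattractant CCL2, went from 22.7 and 15.8 RPKM to 98.3 and 111 RPKM (log2 fold change 2.43 ± 0.18, limma adjusted p = 0.00156). CCR1, a receptor for CCL3 and CCL5, went from 29.7 and 22.4 RPKM to 58.2 and 57.0 RPKM. CXCR2, a receptor for CXCL8, went from 5.92 and 5.07 RPKM to 16.7 and 18.6 RPKM. In these 3 genes the lower shRNA1 library was above the higher control. PTAFR, the receptor for platelet-activating factor, rose by 1.85 on the log2 scale, the prostaglandin E2 receptor PTGER2 by 1.12 and the nucleotide receptor P2RY2 by 1.17. The 3 members that fell were GPR84, a receptor for medium-chain fatty acids (30.3 and 27.8 RPKM in the controls, 10.2 and 7.47 RPKM with shRNA1), the formyl peptide receptor FPR2 (-1.53) and the thromboxane receptor TBXA2R (-0.66).

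Of 33 cytokine and growth factor receptors tested of 72 listed, 11 rose and 1 fell (median 0.25, 0.13 with the length trend removed), 1 of the increases being of a gene that passed the level filter only through shRNA1. CSF1R, the receptor that drives macrophage development, was at 4.02 and 2.16 RPKM in the controls and 10.1 and 11.1 RPKM with shRNA1. IL1RAP, the shared chain of interleukin 1 receptors and a surface marker of leukaemic stem cells, went from 7.85 and 7.18 RPKM to 20.2 and 21.1 RPKM. CSF3R, the receptor for granulocyte colony-stimulating factor, rose by 0.68 and FLT3, a kinase often mutated in this leukaemia, by 0.68 on the log2 scale. IL2RG, the common gamma chain, was the member that fell (-0.99). Of 21 JAK-STAT genes tested, 6 rose and 1 fell; the kinase JAK2 rose by 1.08 and the kinase PIM3 fell by 1.36 on the log2 scale. Of 37 integrins and adhesion molecules tested of 61 listed, 13 rose and 3 fell (median 0.34, 0.13 to 0.45 with a library left out, the lowest without control B), again with 1 increase of a gene that passed the filter only through shRNA1. Adhesion genes that rose included the SLAM family receptor CD84 (0.783 and 0.715 RPKM against 5.24 and 5.83 RPKM), PECAM1 (1.27) and the integrin chain ITGA4 (0.96), while the tight junction protein F11R fell (-1.02). Without shRNA1 B, 3 of the 20 calls named in this and the preceding paragraph missed the threshold (adjusted p from 0.0607 to 0.231), and without shRNA1 A 2 did (0.0621 to 0.120).

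Among the ligands that such receptors bind, decreases outnumbered increases. Of 65 interleukins, interferons and TNF family ligands listed, 28 were tested, 11 fell and 2 rose, with a median log2 fold change of -0.43 (-0.64 to -0.31 with a library left out, -0.32 with the length trend removed). The level filter was passed only through the controls by 5 of the 28, and 3 of the 11 that fell are among them. Of 12 chemokine genes tested of 40 listed, 4 fell and 1 rose (median -0.60, -0.74 to -0.39 with a library left out, -0.33 with the length trend removed), and 2 of those tested and 1 of those that fell passed the filter only through the controls. TNF, a cytokine that activates NF-kB, was at 32.5 and 36.8 RPKM in the controls and 8.74 and 8.26 RPKM with shRNA1. VEGFA, the endothelial growth factor, went from 12.4 and 22.1 RPKM to 5.42 and 4.93 RPKM, and the growth factor HBEGF from 6.71 and 6.46 RPKM to 2.76 and 2.49 RPKM. Both shRNA1 libraries were below both controls in these 3 genes, and the controls were furthest apart for VEGFA. CXCL8, the neutrophil attractant, was at 429.6 and 227 RPKM in the controls and 89.2 and 102 RPKM with shRNA1, and CCL5 at 207 and 142 RPKM against 62.7 and 46.4 RPKM. TGFB1 (-0.79), IL23A (-1.06) and TNFSF14 (-1.19, or -0.70 without control A) also fell. The ligands that rose were the death ligand TNFSF10 (1.53, or 0.97 without control B) and TNFSF13B, a B cell survival factor (0.93), together with CMTM6 (0.56), a membrane protein of a chemokine-like family that stands in the chemokine list.

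Feedback inhibitors of the ERK kinase cascade and regulators of G protein signalling also held more decreases than increases. Of 33 such genes tested of 46 listed, 10 fell, 1 rose and 22 did not pass, with a median of -0.05 (-0.13 to 0.03 with a library left out, above 0 only without control B). SPRY1, an inhibitor of receptor tyrosine kinase signalling, was at 5.16 and 5.73 RPKM in the controls and 1.43 and 0.999 RPKM with shRNA1. RGS16, which speeds the shut-off of G proteins, went from 32.9 and 21.0 RPKM to 7.96 and 4.89 RPKM. The phosphatases DUSP1 and DUSP2, which remove phosphate from MAP kinases, fell by 0.67 and 1.23 on the log2 scale, and both IER3 (fell by 1.62) and the transcription factor ETV4 (fell by 0.86) went with them. RGS18, a regulator found in platelets and myeloid cells, was the member that rose (1.14). In RGS1 the log2 fold change of -1.71 was -0.92 without control A, which had the highest of its values (40.0 and 12.9 RPKM in the controls, 4.87 and 8.92 RPKM with shRNA1). Of the 19 calls named here among ligands and feedback genes, 3 were lost without shRNA1 A (adjusted p from 0.0630 to 0.190) and 3 without shRNA1 B (0.0808 to 0.1998).

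To show the regulatory sequence of genes at both ends of the change, the 250 bases before the start site are printed for 4 of them, from RefSeq on GRCh38.p14, each 5′ to 3′ in the direction of the gene. The measurements were made on hg19, and no coordinate of that build is used. Capitals mark each match of 5 short motifs, searched on both strands. The motifs are TGANTCA, a core bound by AP-1 factors; TTGCNNAA, part of the site of C/EBP factors; TGATGNAA, the joint site of C/EBP and ATF4; GGANNTTCC, part of the site of NF-kB; and the TATA box TATAAA. CHAC1 (chr15:40953221-40953470, plus strand) and CXCL8 (chr4:73740319-73740568, plus strand) fell, LTB (chr6:31582426-31582675, minus strand) fell and CCR2 (chr3:46353861-46354110, plus strand) rose.
CHAC1: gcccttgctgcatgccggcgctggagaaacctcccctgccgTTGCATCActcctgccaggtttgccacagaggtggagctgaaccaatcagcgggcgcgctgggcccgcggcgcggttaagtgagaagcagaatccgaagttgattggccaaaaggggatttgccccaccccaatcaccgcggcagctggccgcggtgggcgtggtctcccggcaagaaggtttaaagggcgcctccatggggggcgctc
CXCL8: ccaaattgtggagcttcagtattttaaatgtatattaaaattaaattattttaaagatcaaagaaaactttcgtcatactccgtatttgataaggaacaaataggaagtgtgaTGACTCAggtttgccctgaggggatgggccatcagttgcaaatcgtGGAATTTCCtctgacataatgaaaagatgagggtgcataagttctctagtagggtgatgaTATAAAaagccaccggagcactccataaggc
LTB: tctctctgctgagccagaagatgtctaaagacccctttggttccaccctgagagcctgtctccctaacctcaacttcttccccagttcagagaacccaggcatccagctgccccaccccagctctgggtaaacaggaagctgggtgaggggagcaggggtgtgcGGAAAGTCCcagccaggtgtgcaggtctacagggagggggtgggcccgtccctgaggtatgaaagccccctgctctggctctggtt
CCR2: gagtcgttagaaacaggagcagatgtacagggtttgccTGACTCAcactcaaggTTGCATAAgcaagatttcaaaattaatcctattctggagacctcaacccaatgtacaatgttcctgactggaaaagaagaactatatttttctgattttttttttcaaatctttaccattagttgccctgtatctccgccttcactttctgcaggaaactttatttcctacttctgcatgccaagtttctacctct
In CHAC1 the match to the C/EBP and ATF4 site, on the reverse strand, ran from 209 to 202 bases before the start. CXCL8 had an AP-1 match 137 to 131 bases before the start, an NF-kB match at 91 to 83 and its TATA box at 31 to 26. LTB held an NF-kB match on the reverse strand at 86 to 78, and CCR2 an AP-1 match at 212 to 206 and a C/EBP match at 196 to 189. Promoters were matched by Entrez identifier for 8597 of the genes tested, taking the first start listed where a gene had several. TGANTCA stood in 3.47% of these windows, in 9.2% of the 174 of genes that rose at least 2-fold and in 12.7% of the 102 of genes that fell at least 2-fold. TATAAA stood in 5.13%, 9.2% and 18.6% of the same sets. For TTGCNNAA the shares were 6.1%, 14.4% and 7.84%, and for TGATGNAA 1.3%, 3.45% and 6.86%. GGANNTTCC stood in 3.89%, 4.6% and 7.84%, the last being 8 promoters. That motif was shortened after its shares had been seen, and with 1 more G at its 5′ end they were 1.3%, 1.72% and 2.94%. The GC box GGGCGG stood in 67.9%, 51.7% and 54.9%. Over all 851 promoters of genes that rose and 705 of genes that fell, of any size of change, most shares were nearer to those of all genes tested. They were 5.41% and 4.26% for TGANTCA, 5.88% and 8.51% for TATAAA, 8.34% and 6.81% for TTGCNNAA, 1.65% and 2.13% for TGATGNAA, 4.23% and 5.82% for GGANNTTCC and 64.6% and 64.5% for GGGCGG. Matches of GGANNTTCC and GGGCGG overlapped in 18 promoters, and 2 other pairs of motifs did so in 1 promoter each. These shares are descriptions with no test, and a match of letters is not a bound site.

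Genes for azurophil granule proteins went both ways, and those of specific and gelatinase granules were mostly lower in value. Neutrophil granules are filled in succession during granulocyte development, the azurophil granules first and the specific and gelatinase granules later. Of 16 azurophil genes tested, 4 rose and 5 fell (median 0.07, -0.05 to 0.18 with a library left out). ELANE, which encodes neutrophil elastase, went from 39.7 and 25.2 RPKM in the controls to 154 and 118 RPKM with shRNA1 (log2 fold change 2.08 ± 0.22, limma adjusted p = 0.00327). LYZ, CTSG (cathepsin G) and GRN (progranulin) were the others that rose, CTSG by 0.66 and GRN by 1.15. MPO, the peroxidase that defines these granules, was at 11.2 and 10.1 RPKM in the controls and 5.16 and 4.63 RPKM with shRNA1, and BPI, which binds lipopolysaccharide, at 34.7 and 20.5 RPKM against 7.12 and 8.19 RPKM. DEFA4, PRSS57 (-0.99) and RNASE3 (-0.74) fell with them. In each gene given by library here the groups stood apart. Of 10 specific and gelatinase granule genes tested, TCN1 (-1.06), CYSTM1 (-0.74) and MMP9 (-1.34, or -0.77 without control A) fell and MMP25 rose (0.80). In that list 7 members had a value below 0, 6 of them at an unadjusted p under 0.05 (median -0.67, -0.82 to -0.53 with a library left out, -0.46 with the length trend removed), and 1 passed the filter only through the controls. In the NADPH oxidase, CYBB, its membrane catalytic subunit, rose from 30.6 and 37.0 RPKM to 72.9 and 75.4 RPKM. Of the 11 tested members of this complex, 1 rose, 1 fell and 9 did not pass.

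Among calcium-binding S100 proteins, annexins and galectins, 6 of 27 tested genes fell and 3 rose, 1 and 1 of these having passed the level filter only through the controls and only through shRNA1. S100A8 and S100A9, which pair as calprotectin in neutrophils and monocytes, were at 831 and 429 RPKM and 1409.6 and 838 RPKM in the controls and at 141 and 119.7 RPKM and 405 and 328 RPKM with shRNA1. For both genes control A was above control B, and both shRNA1 libraries lay below the lower control. S100A10, a partner of annexin A2, fell from 77.1 and 38.3 RPKM to 18.9 and 17.5 RPKM, and S100P fell by 0.97 on the log2 scale. The annexins went both ways, ANXA3 from 3.49 and 3.81 RPKM to 0.420 and 0.527 RPKM, ANXA6 from 38.0 and 30.9 RPKM to 96.7 and 98.1 RPKM and ANXA4 by 1.04 on the log2 scale. Without shRNA1 B, 6 of the 21 calls named in this and the preceding paragraph missed the threshold (adjusted p from 0.0588 to 0.168), and without shRNA1 A CTSG did (0.174).

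Of 100 myeloid and haematopoietic transcription factors listed, 75 were tested, 18 fell and 10 rose (median -0.09, -0.17 to -0.02 with a library left out). Among these calls, 1 increase was of a gene that passed the level filter only through shRNA1, and 1 decrease only through the controls. TFEC, a relative of the lysosomal regulator TFEB in macrophages, was at 1.48 and 1.27 RPKM in the controls and 8.35 and 9.04 RPKM with shRNA1. ELF1, an ETS factor, went from 15.3 and 17.9 RPKM to 34.0 and 41.3 RPKM. IRF8, which steers progenitors to monocytes and dendritic cells, went from 129 and 93.7 RPKM to 229 and 208 RPKM. All 3 were higher in both shRNA1 libraries. CEBPE, which drives late granulocyte development, went from 37.8 and 21.1 RPKM to 13.3 and 10.2 RPKM, CEBPB from 16.3 and 22.5 RPKM to 11.8 and 9.44 RPKM and KLF6 from 26.4 and 19.5 RPKM to 8.67 and 9.42 RPKM. The leucine zipper factors ATF5 (-1.54) and BATF3 (-1.57), the homeobox factor HHEX (-1.01) and ETS1 (-0.95) fell too. ID2, an inhibitor of helix-loop-helix factors, rose by 1.60, or 0.81 without control B.

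Of 23 HOXA cluster and stemness genes tested, 5 rose and 4 fell. HOXA9, which sustains self-renewal in this leukaemia, was at 2.58 and 3.45 RPKM in the controls and 6.04 and 5.60 RPKM with shRNA1, and SOX4, a factor of immature cells, at 16.8 and 15.2 RPKM against 12.1 and 10.0 RPKM. The de novo DNA methyltransferases DNMT3A (9.30 and 10.1 RPKM in the controls, 4.59 and 5.19 RPKM with shRNA1) and DNMT3B (-0.72) fell. TET2, which oxidises methylcytosine, rose by 0.80. Of 73 chromatin regulators tested, 5 rose and 8 fell, MEN1 (-0.91), HDAC9 (-0.94) and the demethylase KDM6B (-0.96) among the latter. Among histone genes, 3 of 23 tested rose and 4 fell, 1 increase and 1 decrease being of genes that passed the filter through 1 group only. H2AFX, the variant phosphorylated at DNA breaks, went from 74.7 and 64.9 RPKM to 12.7 and 10.98 RPKM, and H2AFJ from 5.40 and 4.197 RPKM to 1.86 and 1.71 RPKM, while HIST1H2BK went up from 20.8 and 18.3 RPKM to 58.5 and 56.9 RPKM. The clustered histone genes, HIST1H2BK among them, are near-identical copies whose reads the counting could split, so their values are uncertain. Of the 22 calls named in this and the preceding paragraph, 13 kept the call with each library left out, 5 lost it without shRNA1 A (adjusted p from 0.0612 to 0.0996) and 7 without shRNA1 B (0.0514 to 0.375).

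In the pathway of tafazzin itself, 4 of 15 tested cardiolipin genes fell, the target among them, and 1 rose (median -0.25, -0.39 to -0.17 with a library left out, -0.11 with the length trend removed). LCLAT1, an acyltransferase that also remodels cardiolipin, was at 7.27 and 8.15 RPKM in the controls and 4.22 and 4.04 RPKM with shRNA1. PLD6, a phospholipase of the mitochondrial surface that cleaves cardiolipin, went from 38.6 and 40.5 RPKM to 28.0 and 22.0 RPKM, and PRELID1, which carries phosphatidic acid between the mitochondrial membranes, from 393 and 320.4 RPKM to 259.6 and 214 RPKM. HADHA, the trifunctional protein subunit that can acylate monolysocardiolipin, rose from 101 and 105 RPKM to 138 and 146 RPKM. The groups did not overlap in any of these 4 genes, and each change was smaller than the fall of TAZ. For phosphatidylethanolamine and phosphatidylserine, 3 of 11 genes rose and 1 fell, with ETNK1, the first kinase of the ethanolamine branch, up by 0.61 and CEPT1, its last transferase shared with choline, at -0.56. ANO6, a scramblase that exposes phosphatidylserine, rose from 5.22 and 6.79 RPKM to 11.7 and 12.6 RPKM.

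Among sphingolipid genes, 9 of 24 tested rose and 1 fell (median 0.31, 0.26 to 0.38 with a library left out, 0.28 with the length trend removed). CERK, the kinase that makes ceramide 1-phosphate, was at 7.17 and 6.69 RPKM in the controls and 13.8 and 13.6 RPKM with shRNA1. ASAH1, the acid ceramidase, went from 24.8 and 31.9 RPKM to 52.6 and 56.3 RPKM. Both kept their calls with each library left out. Genes of ceramide synthesis that rose were SPTLC1 (0.48), SPTLC2 (0.45), CERS6 (0.64) and DEGS1 (0.43). In eicosanoid synthesis 3 of 13 rose and 3 fell, 1 of the increases being of a gene that passed the level filter only through shRNA1. Beside PTGDS, the cyclooxygenase PTGS1 rose (0.69), whereas PTGR1, which inactivates prostaglandins and leukotriene B4, fell from 6.20 and 6.17 RPKM to 3.03 and 2.93 RPKM and the thromboxane synthase TBXAS1 fell by 0.60 on the log2 scale. Of 33 cholesterol genes 2 rose and 1 fell, and their median of 0.11 ran from -0.18 to 0.47 with a library left out. Most lipid gene calls rested on the full set of libraries: of the 17 named in this and the preceding paragraph, 10 were lost without shRNA1 A (adjusted p from 0.0751 to 0.326) and 12 without shRNA1 B (0.0761 to 0.433).

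Genes of mitochondrial import, cristae and dynamics were called at shares near or below the background. Those of the tricarboxylic acid cycle rose at 12.9%, near the background of 9.99%. Their median log2 fold change was 0.05, with 18 values above 0 and 13 below. No list was made of respiratory chain or mitochondrial ribosome genes. Of 46 genes of import, cristae and dynamics, 3 rose and 4 fell, 32 having a value below 0 (median -0.15, -0.24 to -0.11 with a library left out, -0.07 with the length trend removed). Among subunits of the cristae-organising MICOS complex, which binds cardiolipin-rich membrane, CHCHD3 went from 34.7 and 33.1 RPKM to 75.2 and 74.0 RPKM, CHCHD6 from 12.8 and 9.33 RPKM to 6.75 and 5.30 RPKM and APOO fell by 0.45 on the log2 scale. The mitofusins MFN1 and MFN2, which fuse outer membranes, rose by 0.55 and 0.56. In the tricarboxylic acid cycle 4 of 31 genes rose and 0 fell by limma, with 1 lower at an unadjusted p under 0.05 and 0 called lower by limma-voom. CS, citrate synthase, was at 76.9 and 103 RPKM in the controls and 148 and 148 RPKM with shRNA1, and OGDH, a 2-oxoglutarate dehydrogenase subunit, at 9.21 and 10.0 RPKM against 16.7 and 16.5 RPKM. HSD17B10, a dehydrogenase that is also a subunit of mitochondrial RNase P, fell from 74.9 and 62.6 RPKM to 22.3 and 20.5 RPKM. The glucose transporter SLC2A3 fell from 29.8 and 17.0 RPKM to 7.33 and 8.41 RPKM.

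Of 32 redox genes 3 rose and 3 fell, 9.38% each way and close to the background. CAT, catalase, rose from 70.9 and 68.7 RPKM to 140 and 159 RPKM, and from the list of NADPH-producing enzymes the transhydrogenase NNT rose by 0.79. SOD1, a superoxide dismutase, fell by 0.57 and TXN, thioredoxin, fell by 0.55 on the log2 scale. In iron and heme handling 4 of 26 genes rose and 0 fell by limma, with 1 lower at an unadjusted p under 0.05 and 0 called lower by limma-voom. The ferritin receptor NCOA4 rose from 44.4 and 63.2 RPKM to 83.7 and 110.1 RPKM. In serine and one-carbon metabolism SHMT1 (-0.59), SHMT2 (-0.73, or -0.46 without control B) and GCSH (-0.57) fell, of 26 tested. Of 23 amino acid transporters 2 rose, SLC36A1 (0.82) and SLC43A3 (0.61), and 2 fell, SLC38A1 (-1.24) and SLC38A5 (-0.52), near the background share (median 0.13). Of the 21 calls named in this and the preceding paragraph, 13 were lost without shRNA1 A (adjusted p from 0.0516 to 0.208) and 16 without shRNA1 B (0.0619 to 0.455).

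Genes of the cell cycle held shares close to the background or below it. Of 47 DNA replication genes 2 rose and 5 fell, of 64 mitosis genes 6 rose and 3 fell, and of 59 DNA repair genes 3 rose and 3 fell. CCNE2, a cyclin of the entry to S phase, was at 8.10 and 9.06 RPKM in the controls and 20.7 and 23.3 RPKM with shRNA1, and MYBL2, a factor that drives mitotic genes, at 69.3 and 71.2 RPKM against 38.8 and 36.0 RPKM. MCM3, a subunit of the replicative helicase, went from 79.9 and 98.0 RPKM to 51.9 and 48.5 RPKM. The checkpoint protein MDC1 rose by 0.82 and the checkpoint kinase BUB1 by 0.76, and the mitotic kinase AURKB fell by 0.86 on the log2 scale. Among p53 targets 1 of 34 rose and 1 fell, TRIM22 (1.51) and SESN2 (-1.39, but -0.69 without control B and -2.09 without control A). In the BCL2 family, BCL2A1, an antiapoptotic member, fell from 48.2 and 25.3 RPKM to 11 and 10.1 RPKM and BCL2L12 from 28.8 and 24.6 RPKM to 10.9 and 10.2 RPKM, whereas BCL2L1 rose by 0.56.

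Of 27 cytosolic heat shock chaperones 0 rose and 0 fell by limma, 0 and 0 by limma-voom, and 1 and 2 had an unadjusted p under 0.05 on the higher and lower side. Of 31 proteasome subunits 27 had a value below 0, of which PSMB4 (-0.68) and PSMB2 (-0.43) passed (median -0.19, -0.05 with the length trend removed). Of 46 translation factors 8 fell and 2 rose. EIF4EBP1, the repressor of cap-dependent initiation, was at 194 and 305 RPKM in the controls and 118 and 109 RPKM with shRNA1. XBP1, the transcription factor of the unfolded protein response, went from 206 and 200.4 RPKM to 115 and 90.6 RPKM, and HERPUD1, a component of protein degradation from the endoplasmic reticulum, fell by 0.66 on the log2 scale, while the chaperone HYOU1 rose by 0.59. Of the 17 calls named in this and the preceding paragraph, 4 were lost without shRNA1 A (adjusted p from 0.105 to 0.195) and 10 without shRNA1 B (0.0543 to 0.330).

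Genes for proteases and the extracellular matrix rose at more than the background share. Proteases and inhibitors also fell at 15.4%, above the background of 8.58%. Of 70 proteases and inhibitors listed, 39 were tested, 15 rose and 6 fell (median 0.25, 0.07 to 0.36 with a library left out). Of these increases, 1 was of a gene that passed the level filter only through shRNA1. SERPINB8, an intracellular protease inhibitor, was at 40.8 and 36.2 RPKM in the controls and 106 and 105 RPKM with shRNA1. CPM, a membrane carboxypeptidase of maturing macrophages, went from 3.85 and 4.17 RPKM to 11.2 and 10.6 RPKM, and THBD, thrombomodulin, from 5.74 and 6.32 RPKM to 18.2 and 12.6 RPKM. SLPI, an inhibitor of neutrophil elastase and cathepsin G, went down from 48.9 and 29.5 RPKM to 10.1 and 8.82 RPKM, and PLAUR, the urokinase receptor, from 92.3 and 63.0 RPKM to 41.1 and 33.0 RPKM. Its ligand PLAU rose by 0.90, or 0.56 without control B. Of 19 matrix genes tested of 59 listed, 7 rose and 1 fell (median 0.35, 0.29 to 0.55 with a library left out, 0.17 with the length trend removed). Of those tested, 3 passed the filter only through shRNA1, 1 of them among the 7 that rose, and 2 only through the controls. SPARC went from 20.9 and 19.1 RPKM to 52.2 and 54.6 RPKM and ECM1 from 1.91 and 1.44 RPKM to 7.28 and 7.24 RPKM.

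Of 41 ion channels and pumps 9 rose and 2 fell. ITPR1, a calcium release channel of the endoplasmic reticulum, was at 4.83 and 7.37 RPKM in the controls and 13.5 and 14.3 RPKM with shRNA1, and KCNN4, a potassium channel opened by calcium, at 34.4 and 24.2 RPKM against 14.6 and 12.5 RPKM. Of 61 actin genes 11 rose and 9 fell, among them the filament stabiliser TPM4, up by 1.04, and VASP, which extends filaments, from 93.3 and 84.6 RPKM to 44.8 and 37.4 RPKM. ATP6V0C, the membrane ring subunit of the vacuolar proton pump, fell from 70.6 and 63.0 RPKM to 37.5 and 30.6 RPKM, while 2 of 19 subunits rose and 1 more fell. In the Wnt, Notch, TGF-beta and Hippo pathways 4 of 42 genes rose and 4 fell, close to the background, and 2 of the decreases are of genes that passed the filter only through the controls. The ligand WNT10B went from 5.00 and 4.43 RPKM to 1.56 and 1.40 RPKM. Of the 14 calls named in this and the preceding paragraph, 13 kept the call with each library left out, and PLAU lost it without shRNA1 B (adjusted p = 0.0588).

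The hairpins were set against each other in 1 fit of all 6 libraries, since both are compared with the same 2 controls. Of 10660 genes tested there, 650 were higher and 510 lower with shRNA1 than with shRNA2, which is 6.1% and 4.78% (limma, adjusted p under 0.05). Among the 1060 genes that rose with shRNA1, 206 were higher than with shRNA2 and 29 lower. Among the 911 that fell, 147 were lower and 36 higher. Both comparisons draw on the same shRNA1 libraries. Genes picked as risen therefore lean towards higher than shRNA2, and genes picked as fallen towards lower. These counts do not measure how much of the response belongs to 1 hairpin. TAZ itself was left at 1.47 and 2.13 RPKM with shRNA2 A and B, lower than with shRNA1 (difference 1.001 ± 0.16 on the log2 scale, adjusted p = 0.00801). S100A8 was at 1298 and 815 RPKM with shRNA2, against 141 and 119.7 RPKM with shRNA1 and 831 and 429 RPKM in the controls. RETN stood at 131 and 87.1 RPKM with shRNA2 and H2AFX at 67.9 and 49.7 RPKM. For RETN both shRNA2 libraries lay above the controls, for S100A8 1 did and the other lay between them, and for H2AFX 1 lay between them and 1 below. The shRNA1 libraries were below all of these. CXCR4, the receptor that holds leukaemia cells in the marrow, stood at 72.9 and 55.7 RPKM in the controls, 140.2 and 141 RPKM with shRNA1 and 41.6 and 34.2 RPKM with shRNA2, above the controls with one hairpin and below them with the other. IDH1, a cytosolic enzyme that makes NADPH and 2-oxoglutarate, did the same, at 55.3 and 40.3 RPKM, 71.1 and 70.3 RPKM and 24.5 and 19.6 RPKM. Its rise over the controls was not called without shRNA1 A (adjusted p = 0.145) or shRNA1 B (0.175), and its log2 fold change of 0.58 was 0.35 without control B. HAPLN4, GABRR1, B3GNT7 and TMEM255A also differed, by 2.17, 2.46, 2.74 and 2.44 on the log2 scale. By contrast IL32 stood at 0.222 and 0.0430 RPKM with shRNA2 and LYZ at 4221 and 3494 RPKM, and for these the difference between hairpins was 0.13 ± 0.21 (adjusted p = 0.740) and 0.38 ± 0.21 (adjusted p = 0.306).

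**Figure D4:**
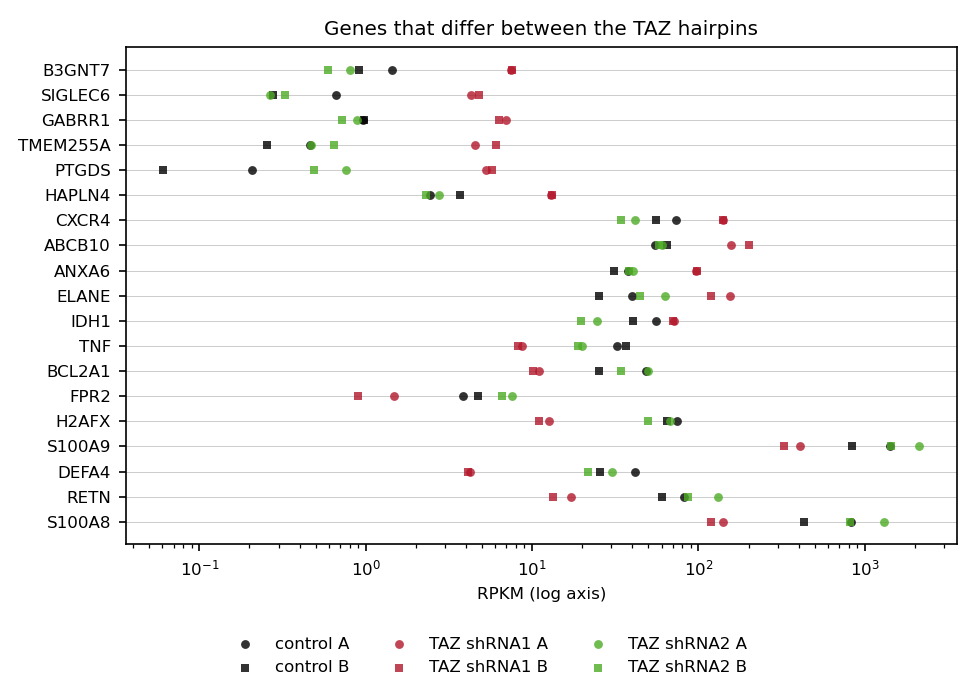
RPKM on a log axis for 19 genes chosen after their values were seen, with 1 point per library, controls in black, TAZ shRNA1 in red and TAZ shRNA2 in green. For the upper genes the red points lie right of the black and green ones, and from TNF downwards they lie left of them. CXCR4 and IDH1 have green points left of the black ones and red points right of them.

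The labelled cell type was checked against markers of leukaemic blasts and of other lineages. Of 18 blast marker symbols listed, CD13 and ANPEP among them naming the same gene, 12 averaged at least 1 RPKM. CD33 was at 19.7 and 19.9 RPKM in the controls and 34.2 and 36.6 RPKM with shRNA1, FLT3 at 22.5 and 23.3 RPKM against 34.4 and 39.7 RPKM and PTPRC, which encodes CD45, at 58.5 and 62.4 RPKM against 84.2 and 100.4 RPKM. Of these 12, 7 rose and 1, MPO, fell. Of the markers of other lineages, 2 of 21 erythroid, 2 of 14 megakaryocyte, 2 of 12 mast cell, basophil and eosinophil, 3 of 21 T and NK cell, 3 of 17 B and plasma cell, 5 of 14 dendritic cell and 1 of 12 epithelial and fibroblast genes reached that level. The summed levels of several of these lists differed between the groups. The erythroid list stood at 265 and 224 RPKM in the controls and 483 and 484 RPKM with shRNA1, nearly all from CA2. The mast cell, basophil and eosinophil list went from 122 and 71.4 RPKM to 259.8 and 245 RPKM, nearly all from PRG2. Without CA2 and PRG2 these lists were at most 16.01 and 5.99 RPKM in any of the 4 libraries. The B and plasma cell list went down from 217 and 207 RPKM to 121 and 97.1 RPKM, mostly from XBP1, and the megakaryocyte list from 7.49 and 6.002 RPKM to 3.47 and 2.96 RPKM, in the controls mostly from GP9. The T and NK list went from 59.7 and 44.5 RPKM to 65.4 and 64.7 RPKM, and without NKG7, its highest gene, from 17.1 and 16.7 RPKM to 29.9 and 32.2 RPKM. In each of these 5 lists the groups did not overlap, and single genes were apart in this way for 66.0% of all genes tested. The epithelial and fibroblast list did not overlap either, at 1.59 and 1.75 RPKM in the controls and 1.81 and 2.28 RPKM with shRNA1. Nor did the blast list, at 1248 and 1078 RPKM against 5845 and 5293 RPKM, mostly LYZ with shRNA1. Without LYZ, its highest gene, the blast list was at 462 and 402 RPKM in the controls and 608 and 551 RPKM with shRNA1. In the dendritic list, which ran over the 4 libraries from 49.4 to 63.0 RPKM, the groups overlapped. The globin genes, the T cell receptor chain CD3E and the blast markers CD34, CD13 and IL3RA had no values analysed here. What part cells of another kind have in the results was not tested.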

How the data were processed

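RNA of OCI-AML2 cells was sequenced from a directional library kit, per the labels' protocols. Per the submitters' processing notes the build was hg19, and the tools named, with no role or order, were DESeq 1.18.0, edgeR 3.8.6, HTSeq 0.6.1p2, TopHat2 2.0.11 and Trim Galore 0.4.0. The authors deposited 1 table per hairpin with RPKM per library. Per the file headers, further columns are the authors' own log2 CPM, log2 fold change, likelihood-ratio score and p-values. Of these only the log2 CPM was used. It set the range in which the reads of each gene were sought, and it scaled the reads of 58 genes. No source used here gives the gene filter or strand setting.

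Columns were matched to samples through the table's title and the library letter, and 0 columns were left unmatched. Both tables hold the same control values. Of the 13004 lines, 21 symbols turned into dates were restored through gene identifiers and 2 repeats were dropped, leaving 13002 genes. Genes averaging 1 RPKM or more were compared as log2(RPKM + 0.5) with limma 3.58.1 in R 4.3.3 (eBayes with trend, two-sided, Benjamini-Hochberg adjustment over all genes tested, threshold 0.05), with no count model as the main test. A fold change on this scale understates the change of low genes. For 12944 genes (99.6%) the RPKM steps, searched in the range set by the log2 CPM, gave whole reads within 0.05 of a read. These reads served a limma-voom alternative and the depths. The procedure was checked on simulated data, where the share of false calls was above the nominal rate.

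Genes named were TAZ, the 15 largest changes each way, the 10 largest RPKM changes each way, up to 6 members per list by limma p, and others needed to describe a list. A few genes that the rule names are not reported here. HAPLN4, HSD17B10 and PTPRC were chosen after their values were seen. The 55 pathway lists, 8 cell type lists, motifs and members were chosen with earlier results of these data known. The alternatives were other pseudocounts, filters, variance models, scalings, a replicate block, libraries left out, all 6 libraries together, limma-voom and a length correction.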

Additional observations from a re-analysis of the deposited data

Results flagged for a closer look

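For 78 of the genes named above, TAZ among them, the value with shRNA1 differed from that with shRNA2 in the fit of all 6 libraries (limma, Benjamini-Hochberg adjusted p under 0.05). Of these, 44 were higher with shRNA1 and 34 lower. Over all 10660 genes tested there, 6.1% were higher and 4.78% lower. The named genes were chosen largely for their change with the same shRNA1 libraries, and a few after their values were seen. Their count is therefore not comparable with those shares. The test sets the values of the hairpins against each other directly, and the controls enter through the level filter and the estimate of spread. All values below are differences on the log2 scale, shRNA1 minus shRNA2. The target differed as well (TAZ 1.001), so the hairpins did not leave the same level of the target. What part that has in the other differences was not tested.

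Among genes of innate surface receptors and adhesion, the differences were SIGLEC6 2.67, SIGLEC10 0.58, SIGLEC14 0.66, CD33 0.47, CLEC12A 0.68, SIRPB2 0.97, LY86 1.26, CD84 1.15 and ITGA4 0.86, all higher with shRNA1. Among G protein-coupled receptors and cytokine receptors they were CXCR4 1.88, PTGER2 0.92, CSF1R 0.87, IL1RAP 0.62 and GPR124 1.25 on the higher side and FPR2 -2.19 on the lower. Ligands and feedback genes differed by VEGFA 1.09 on the higher side and TNF -1.14, LTB -1.16, TGFB1 -0.57, IER3 -1.37, DUSP1 -0.60 and RGS1 -2.001 on the lower.

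Granule and calcium-binding proteins differed both ways. Those higher with shRNA1 were ELANE 1.34, MPO 1.63, PRSS57 0.57, PRG2 1.45, MMP25 1.38, ANXA6 1.30 and ANXA4 0.51, and those lower were S100A8 -2.98, S100A9 -2.26, RETN -2.79, DEFA4 -2.49, TCN1 -1.86, MMP9 -1.91, GRN -0.93, RNASE3 -0.82, ANXA3 -1.30 and SLPI -1.36. Against control, MPO and PRSS57 had log2 fold changes of -1.05 and -0.99 with shRNA1 and of -2.68 and -1.56 with shRNA2, all past the threshold.

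Transcription factors, chromatin regulators and histones differed by TFEC 0.84, IRF8 0.89 and SOX4 1.37 on the higher side and ETS1 -1.08, HDAC9 -1.01, KDM6B -0.85, MEN1 -0.78, H2AFX -2.25, H2AFJ -1.30 and HIST1H2BK -0.54 on the lower. Genes of lipids, mitochondria and metabolism differed by PTGDS 2.43, ABCB10 1.58, IDH1 1.67, CAT 0.87, SLC43A3 0.95, SLC38A5 0.99 and PLD6 0.63 on the higher side and PTGR1 -1.14 and HSD17B10 -0.998 on the lower. Cell cycle and survival genes differed by CCNE2 0.49 on the higher side and MCM3 -1.07, MYBL2 -0.48, BCL2A1 -1.92 and BCL2L12 -0.84 on the lower. Proteases, matrix, cortex and signalling genes differed by SERPINB8 1.03, PLAU 1.30, SPARC 0.79 and WNT10B 0.62 on the higher side and VASP -1.27, ATP6V0C -1.25 and PTPRCAP -1.15 on the lower. The remaining genes of the largest increases differed by HLA-DRA 3.02, B3GNT7 2.74, GABRR1 2.46, TMEM255A 2.44 and C5orf20 2.09, and so did a link protein of the matrix (HAPLN4 2.17) and the platelet glycoprotein GP9 -1.08.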

How the results depend on the processing

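With 1 library left out at a time, the number of genes changed against control (1971 with all 4 libraries) ran from 500 to 4447, the number higher from 277 to 2217 and the number lower from 223 to 2230. The lowest values came without shRNA1 B and the highest without control B, and without shRNA1 A or control A the numbers changed were 811 and 3286. With 1 library in a group, that library is assumed to vary like those of the other group. The number that differed between the hairpins (1160) ran from 162 to 458 with a library of either hairpin left out and reached 1628 without control B, since the controls share in the estimate of spread. With the library letter as a replicate block, 3780 genes changed (1914 higher and 1866 lower) and 2396 differed between the hairpins. The letters are not stated to pair libraries. The differences of A from B correlated across genes at 0.258 between control and shRNA1, 0.420 between control and shRNA2 and 0.379 between the hairpins, and genes are not independent replicates. The cause of these shifts was not tested. Under the other alternatives the counts against control stayed within 1.5 times. Of 320 named and called genes none reversed in any alternative, 153 lost the call without shRNA1 B, 111 without shRNA1 A, 32 with the length trend removed and 0 with the block. The standard deviation of A minus B was 0.340 in the controls and 0.209 with shRNA1. With 2 libraries per group the spread of any 1 gene is poorly known, and at low levels few reads stand behind a value.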
